A study of Mus musculus with 4 samples.

Results

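Mycl and 9 other genes on mouse chromosome 4 were followed across RNA libraries of sorted lung tumour cells, 10 of the 17746 gene symbols in the deposited table. In order along the chromosome they are Scmh1, Ctps, Smap2, Zmpste24, Rlf, Ppt1, Cap1, Mycl, Trit1 and Ppie, and all 10 were found in the table by symbol. They were picked from the 25 table symbols that lie between 120.4 and 123.9 Mb (mm10) because of their levels in these same libraries, so those levels are given as a description and nothing is inferred from them. The choice names the genes and gives no cut-off on level. The first and last of the 10 genes span 2.73 Mb, from position 120405281 to 123139951.

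The cells came from lung tumours of mice with floxed Rb1 and Trp53, a model of small cell lung cancer, that also carried the knock-in autophagy probe GFP-LC3-RFP-LC3ΔG. After digestion and removal of red blood cells, live EpCAM-positive, RFP-positive cells were divided into GFP-negative cells (2 libraries) and GFP-positive cells (2 libraries). Both groups thus share the floxed genes, the probe and the EpCAM gate. Whether every sorted cell had lost Rb1 and Trp53 is not given. Titles of the samples and the design text disagree on which group has high autophagic flux, so the groups are named by GFP only. The Cre used, the animals' age and the number of animals are not given in the sources, so the spread between the libraries of a group may be technical.

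MYCL is a basic helix-loop-helix transcription factor of the MYC family. MYC proteins pair with MAX, bind the E-box CACGTG and drive genes of growth, nucleotide synthesis and ribosome production, while MXD proteins, MXI1 and MNT compete for MAX. MYCL was first found amplified in human small cell lung cancer, a neuroendocrine tumour, and gains of the Mycl region of chromosome 4 are known from mouse tumours lacking Rb1 and Trp53. The data here are RNA only and hold no measurement of DNA copies.

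Libraries held 69676412 to 73997175 counts in the GFP-negative and 51994432 to 67536465 counts in the GFP-positive group. Counts were present for 17617 and 15710 symbols in GFP-negative libraries, against 6063 and 16379 in GFP-positive libraries, so GFP-positive replicate 1 stands apart. Levels of a gene in a library are given as CPM, its counts divided by the TMM-adjusted library total and multiplied by 1000000, and within each group replicate 1 comes before replicate 2. Epcam, the marker of the sort, had 255 and 88.8 CPM in GFP-negative libraries, against 94.0 and 65.8 CPM in GFP-positive libraries.

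RefSeq (GRCm38.p6, the build of mm10) gave windows of 250 bases before the gene start for 8 of the 10 genes, and 3 are printed. They are Mycl, Trit1, nearest to it in the table, and Rlf, which held the one CACGTG E-box found in these windows. Capitals mark matches on either strand to CACGTG or to the TATA motif TATAAA, which do not overlap; each sequence runs 5′ to 3′ on the strand of its gene and ends 1 base before the RefSeq start. For Mycl the 119 bases at chr4:122995812-122995930 (plus strand) are given, because GENCODE M21 places exon sequence of a longer transcript before them.
Mycl: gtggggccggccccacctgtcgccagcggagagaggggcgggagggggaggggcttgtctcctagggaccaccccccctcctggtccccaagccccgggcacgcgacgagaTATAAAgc
Trit1, chr4:123016343-123016592 (plus strand): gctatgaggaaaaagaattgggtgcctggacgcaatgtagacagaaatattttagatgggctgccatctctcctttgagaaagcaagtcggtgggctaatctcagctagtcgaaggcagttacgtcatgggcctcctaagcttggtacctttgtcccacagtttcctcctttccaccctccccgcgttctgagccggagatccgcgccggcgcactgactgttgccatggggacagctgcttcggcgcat
Rlf, chr4:121215085-121215334 (minus strand): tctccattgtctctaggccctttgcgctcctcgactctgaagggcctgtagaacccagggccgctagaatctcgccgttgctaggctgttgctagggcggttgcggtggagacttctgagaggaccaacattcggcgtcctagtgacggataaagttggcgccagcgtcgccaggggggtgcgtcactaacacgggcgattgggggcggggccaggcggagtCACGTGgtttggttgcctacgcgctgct
CACGTG was present in windows of 1 of the 8 genes and in 6.02% of all 32851 mouse windows of this length, and TATAAA in 1 of the 8 genes, Mycl, and in 12.4% of all windows. These matches describe letters only.

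Mycl stood at 1476 and 0.766 CPM in GFP-negative libraries, against 0.639 and 0.659 CPM in GFP-positive libraries. A single library, GFP-negative replicate 1, was high, and the 3 others could not be told apart by counting error, with exact 95% Poisson intervals of 0.570 to 1.01, 0.410 to 0.951 and 0.475 to 0.890 CPM. In counts this was 167610 and 51 in GFP-negative libraries, against 24 and 42 in GFP-positive libraries, so each of the low libraries held 0.0143% to 0.0304% of the number in the high one. Mycl took 0.227% of all counts of GFP-negative replicate 1. It ranked 69th by FPKM, a length-scaled level, among the 17746 symbols there. In GFP-negative replicate 2 its FPKM rank was 13664. The gene lies on the plus strand from 122995652 to 123002485, and no other annotated gene overlaps it. Counting intervals cover counting error only, because amplified reads without molecular identifiers are not independent molecules.

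**Figure D1:**
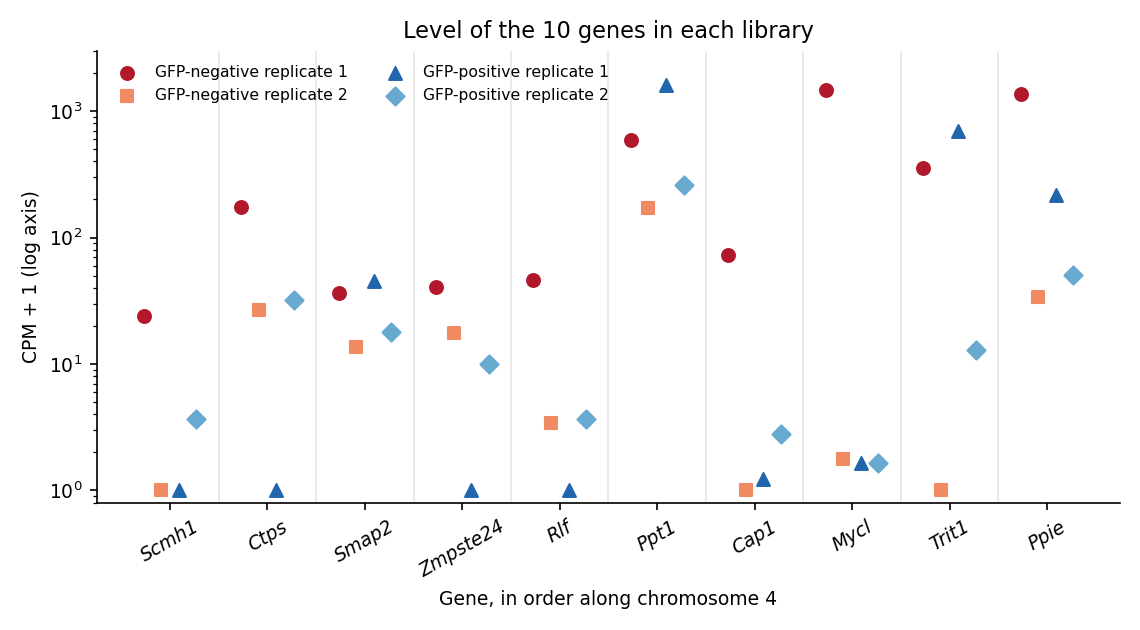
CPM + 1 on a log axis for each of the 10 genes, in chromosome order, with 1 point per library; points at 1 are libraries with 0 counts. GFP-negative replicate 1 is highest for 7 genes, and for Mycl it stands at 1476 CPM while the other libraries lie between 0.639 and 0.766 CPM.

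GFP-negative replicate 1 also held high levels of the genes beside Mycl. It was the highest of the 4 libraries for 7 of the 10 genes, where 36.3% of all 16301 tested genes were highest in that library, and it exceeded GFP-negative replicate 2 in all 10. Measured on CPM + 1, 7 of the 10 stood at least 4-fold above GFP-negative replicate 2, against 17.0% of all tested genes. Because the genes were picked on such values, these shares show how the set was made and are no evidence about it. The median difference in log2(CPM + 1) between GFP-negative replicates 1 and 2 was 4.17 over the 10 genes and 0.23 over all tested genes. On CPM, GFP-positive replicate 1 was highest for the other 3 genes, Ppt1, Trit1 and Smap2. For Trit1 and Smap2 this order turned on the scaling. Their FPKM was higher in GFP-negative replicate 1 (228 and 15.3) than in GFP-positive replicate 1 (217 and 9.11).

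Among the genes of RNA handling, Ppie encodes cyclophilin E, a prolyl isomerase bound to the spliceosome. Ppie stood at 1375 and 33.1 CPM in GFP-negative libraries, against 215 and 49.4 CPM in GFP-positive libraries. Both first replicates exceeded both second replicates, by 41.6-fold between the GFP-negative and 4.35-fold between the GFP-positive libraries. Ppie lies on the minus strand from 123127115 to 123139951 and shares 133 exon bases with Bmp8b on the other strand. Since the kit as described does not mark strand, reads from those bases cannot be told apart. Trit1, 14.1 kb beyond the end of Mycl at 123016597 to 123054949, encodes the enzyme that adds an isopentenyl group to transfer RNAs. Trit1 had 351 and 0 CPM in GFP-negative libraries, against 700 and 12 CPM in GFP-positive libraries. GFP-negative replicate 1 was thus at least 7804-fold above GFP-negative replicate 2, taking 3 counts as the limit there, and the first replicate was again the higher one in each group. The level of Trit1 followed neither GFP status nor that of Mycl, which was low in GFP-positive replicate 1.

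Ppt1 and Cap1 lie on the other side of Mycl. Ppt1 encodes a lysosomal thioesterase that removes palmitate from proteins, and it was at 593 and 170 CPM in GFP-negative libraries, against 1604 and 260 CPM in GFP-positive libraries. The groups overlapped, with both first replicates above both second ones. Cap1, an actin-binding protein that helps to recycle actin monomers, stood at 71.6 and 0 CPM in GFP-negative libraries, against 0.240 and 1.80 CPM in GFP-positive libraries. Behind these values were 8124 and 0 counts in GFP-negative libraries, against 9 and 115 counts in GFP-positive libraries. Cap1 was therefore high in GFP-negative replicate 1 alone, as Mycl was, at 39.7-fold the level of the next library, GFP-positive replicate 2. Its annotated ends at 122859047 and 122886056 overlap Ppt1, on the other strand, by 129 exon bases that unstranded counting cannot assign. Cap1 is expressed in most cell types, so its 0 counts in a library of 69676412 counts, and those of Trit1, are stated as counts in this table and not as absence from the cells.

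A second cluster of the genes, from Scmh1 to Rlf, lies 1621 kb before Ppt1. Rlf encodes a zinc finger protein whose human counterpart is known as a fusion partner of MYCL in small cell lung cancer. Rlf was at 45.3 and 2.43 CPM in GFP-negative libraries, against 0 and 2.68 CPM in GFP-positive libraries, which put GFP-negative replicate 1 at 16.9-fold the next highest library. Scmh1, a Polycomb group protein, had 23.0 and 0 CPM in GFP-negative libraries, against 0 and 2.67 CPM in GFP-positive libraries. Both genes were high in GFP-negative replicate 1 alone, at lower levels than Mycl. Counts gave 5138 for Rlf and 2616 for Scmh1 in that library.

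Ctps encodes CTP synthase, which makes cytidine nucleotides. It stood at 172 and 25.7 CPM in GFP-negative libraries, against 0 and 31.3 CPM in GFP-positive libraries, again highest in GFP-negative replicate 1. An annotated near-copy, Gm16465, matches 1778 bases of a Ctps transcript at 92.3% identity, and the split of reads between them is uncertain. Zmpste24, the protease that matures prelamin A, had 39.9 and 16.5 CPM in GFP-negative libraries, against 0 and 9.08 CPM in GFP-positive libraries, so both GFP-negative libraries were above both GFP-positive ones. Smap2, a GTPase-activating protein for the ARF family in vesicle traffic, had 35.7 and 12.5 CPM in GFP-negative libraries, against 44.6 and 17 CPM in GFP-positive libraries. For Smap2 the groups overlapped and the first replicates were the higher ones.

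On the length-scaled FPKM scale, on which genes can be compared, the levels in GFP-negative replicate 1 ran from 1082 for Ppie through 494 for Mycl, 228 for Trit1, 218 for Ppt1, 70.0 for Ctps, 27.7 for Cap1 and 15.3 for Smap2 to 7.54 for Zmpste24, 6.44 for Rlf and 4.03 for Scmh1. Ppie and Mycl led in that library, and the more distant cluster, Ctps apart, stood below 20 of the same unit. In GFP-negative replicate 2 the order began with Ppt1 at 38.4 FPKM and Ppie at 16.0 FPKM, and Mycl was at 0.157 FPKM. Ppt1 led in both GFP-positive libraries as well, at 282 and 57.3 FPKM, with Mycl at 0.102 and 0.132 FPKM.

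The high levels in GFP-negative replicate 1 did not run through every gene of the stretch that the deposited table holds. Of 65 genes annotated inside the span of the 10 genes, 48 are not in that table, 12 of them protein-coding. Their levels are not known here. Of the 15 other symbols between 120.4 and 123.9 Mb, 14 were tested, and their median difference between GFP-negative replicates 1 and 2 was -0.01 in log2(CPM + 1), with 7 of 14 higher in replicate 1 and 1, Akirin1, at least 4-fold higher. Inside the span of the 10 genes 0 of the 7 other symbols reached 100 CPM in any library. Both results describe what was left once the 10 genes had been picked on their levels here. Low values among the other symbols may thus come from the choice and are no evidence about the stretch. Hpcal4 and Bmp8a, for example, also lay below 1 CPM in both GFP-negative libraries, where adding 1 to CPM shrinks a difference. Akirin1 was not picked, though its difference of 2.42 between these libraries was above those of Ppt1 (1.80), Smap2 (1.44) and Zmpste24 (1.22). Some of the other symbols are named here after their values were seen. Nfyc, a subunit of the CCAAT-binding factor between Ctps and Smap2, had 64.6 and 68.7 CPM in GFP-negative libraries, against 0 and 62.7 CPM in GFP-positive libraries. Nfyc was near-equal in the GFP-negative libraries, while Ctps and Smap2, on either side of it, were higher in the first. Exo5, an exonuclease gene nearby, had 10.6 and 8.14 CPM in GFP-negative libraries, against 0 and 7.04 CPM in GFP-positive libraries.

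Past Ppie, the next gene in the table, Hpcal4, stood at 0.925 and 0.841 CPM in GFP-negative libraries, with 0 counts in both GFP-positive libraries. Macf1, a cytoskeletal linker, had 22.5 and 13.8 CPM in GFP-negative libraries, against 0.107 and 14.2 CPM in GFP-positive libraries. Akirin1, a nuclear factor, had 174 and 31.8 CPM in GFP-negative libraries, against 682 and 77.8 CPM in GFP-positive libraries, with the first replicate higher in each group as for Ppt1. Ndufs5, of respiratory complex I, had 92.2 and 237 CPM in GFP-negative libraries, against 86.5 and 190 CPM in GFP-positive libraries, the opposite order of replicates. Before Scmh1, outside the 10 genes, Foxo6 stood at 9.56 and 0 CPM in GFP-negative libraries, against 0 and 1.25 CPM in GFP-positive libraries, the same order of libraries as Scmh1. Foxj3, a forkhead factor farther out on that side, had 41.5 and 0 CPM in GFP-negative libraries, against 0 and 1.79 CPM in GFP-positive libraries. Its difference of 5.41 in log2(CPM + 1) between the GFP-negative libraries was above that of 7 of the 10 genes. Over the 53 tested genes within 2 Mb outside the 10 genes, the median difference between the GFP-negative libraries was 0.10 with 10 of 53 at least 4-fold higher in replicate 1, and over the 934 tested genes of chromosome 4 outside the span it was 0.43.

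**Figure D2:**
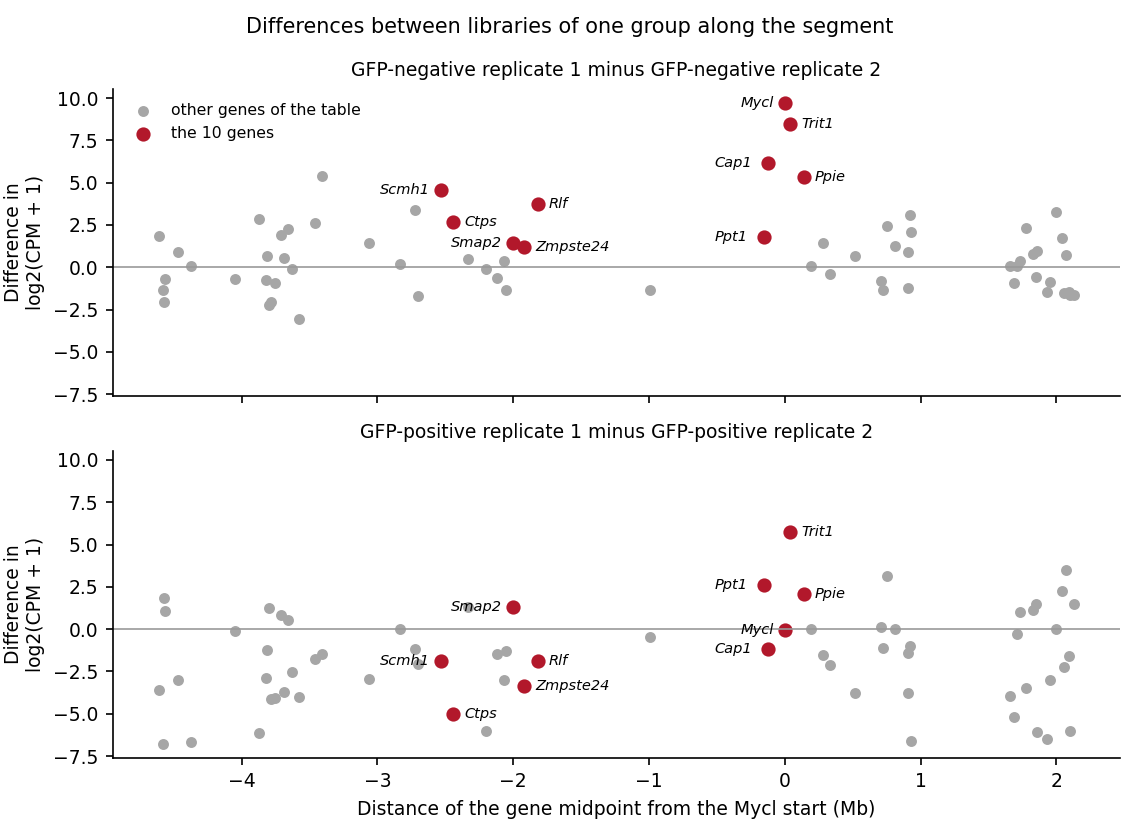
Difference in log2(CPM + 1) between the 2 libraries of a group (upper panel GFP-negative, lower panel GFP-positive) against distance of each gene's midpoint from the Mycl start in Mb; the 10 genes are red and named, other tested genes grey. In the upper panel all 10 genes lie above 0 and Mycl reaches 9.71, while in the lower panel Trit1, Ppt1, Ppie and Smap2 lie above 0 and the others at or below it.

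The GFP-positive pair showed another pattern. GFP-positive replicate 1 exceeded replicate 2 at least 4-fold for Ppt1, Trit1 and Ppie, 3 of the 10 genes, where 7.90% of all tested genes did so. Scmh1, Ctps, Zmpste24 and Rlf, 4 of the 10 genes, had 0 counts in GFP-positive replicate 1, a library in which 64.4% of all tested genes had 0 counts. The median difference of the 10 genes between GFP-positive replicates 1 and 2 was -0.60 in log2(CPM + 1), against -2.00 over all tested genes. In GFP-negative replicate 2, Scmh1, Cap1 and Trit1 had 0 counts, 3 of the 10 genes, as had 9.52% of all tested genes.

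Between the groups, edgeR's quasi-likelihood test called 16 of 16301 genes at a Benjamini-Hochberg adjusted p under 0.05, of which 1 was higher in GFP-negative libraries, which was Mycl. DESeq2's Wald test called 61 genes, of which 48 were higher in GFP-negative libraries and Mycl was not one. The edgeR call is 1 of the 10 genes, against 0.0982% of all tested genes in either direction and 0.00613% on the higher side, and since the 10 genes were chosen with this call known, nothing is read from it. The fitted log2 change of Mycl was 10.15 ± 2.46 (SE, n = 2 per group; edgeR adjusted p = 0.0412), higher beyond counting error in 1 of 2 GFP-negative libraries. The call was lost without GFP-negative replicate 1 (0.24, adjusted p = 1.0) and without GFP-positive replicate 1 (10.12, adjusted p = 1.0). It was also lost with upper quartile scaling (4.09, adjusted p = 0.863), in DESeq2's Wald test (10.48, adjusted p = 0.0522) and in limma on log2(FPKM + 1) (4.42, adjusted p = 0.788). Without GFP-positive replicate 2, whose partner library holds 0 counts for most genes, the fitted change of Mycl was 10.17. Those of Scmh1, Ctps, Zmpste24 and Rlf were 12.71, 15.81, 14 and 13.76, each against 0 counts, so they are no measure of size. With all libraries the remaining 9 genes were not called, and their fitted log2 changes had SEs from 1.38 for Ppt1 to 5.08 for Cap1. Of all 10 genes 7 had a fitted change above 0, as had 11102 of all 16301 tested genes. The median was 2.64, against 0.91 over all tested genes. But 2, Mycl and Zmpste24, had both GFP-negative libraries above both GFP-positive ones, where 25.2% of all tested genes did. For 0 of the 10 both were below, against 6.63% of all tested genes. For Ppie the fitted change was 2.41 ± 1.68 with all libraries and -2.00 without GFP-negative replicate 1. For Trit1 it was -1.02 ± 1.87, and 3.86 without GFP-positive replicate 1.

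Of 12 other genes of the MYC network edgeR called 0 in either direction, with a smallest unadjusted p of 0.0646 (Mnt). Their median fitted log2 change was 0.86, against 0.91 over all tested genes. GFP-negative replicate 1 was highest for 4 of the 12, against 36.3% of all tested genes. In GFP-positive replicate 1, 7 of the 12 had 0 counts, against 64.4% of all tested genes. Myc, the best known member of the family, had 30.2 and 15.3 CPM in GFP-negative libraries, against 245 and 32.5 CPM in GFP-positive libraries. Mycn, the third MYC gene, had 41.8 and 6.41 CPM in GFP-negative libraries, against 0 and 11.9 CPM in GFP-positive libraries. Thus GFP-negative replicate 1 was the highest library for Mycn, and GFP-positive replicate 1 for Myc. Mga, which encodes a MAX-binding protein, had 27.8 and 6.79 CPM in GFP-negative libraries, against 0 and 4.42 CPM in GFP-positive libraries. Both GFP-negative libraries were thus the higher ones for Mga. For Mycl, GFP-negative replicate 2 could not be told apart from the GFP-positive libraries by counting error. Max, the shared partner, had 18.9 and 24.2 CPM in GFP-negative libraries, against 219 and 20 CPM in GFP-positive libraries. Mxi1, a MAX-binding repressor, had 40.2 and 36.5 CPM in GFP-negative libraries, against 582 and 56.7 CPM in GFP-positive libraries. Both Max and Mxi1 were highest in GFP-positive replicate 1.

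Genes that answer to MYC factors in growing cells were read from a list of 24. By edgeR 0 of 24 were called, with a smallest unadjusted p of 0.354. A fitted change above 0 was found for 22, and for 11102 of all 16301 tested genes. The median was 1.30, against 0.91 over all tested genes. GFP-negative replicate 1 was the highest library for 16 of the 24, against 36.3% of all tested genes, and the median difference between GFP-negative replicates 1 and 2 was 1.17 in log2(CPM + 1), against 4.17 for the 10 genes. Cdk4, a cyclin-dependent kinase, and Npm1, nucleophosmin, had the smallest p of the list. Cdk4 stood at 308 and 386 CPM in GFP-negative libraries, against 0 and 188 CPM in GFP-positive libraries. Npm1 had 340 and 448 CPM in GFP-negative libraries, against 0 and 251 CPM in GFP-positive libraries. Their 0 counts in GFP-positive replicate 1 enter both changes. That library had 0 counts for 11 of the 24, against 64.4% of all tested genes. Others of the list were near 0 there, such as Ncl with 28 and Pa2g4 with 4 counts, which enters their changes too. Ldha, Nop56, Eif4e and Srm stood at 1269, 587, 259 and 185 CPM in the same library.

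Partners by function of the 10 genes were also read from a list, and edgeR called 0 of 10, with a smallest unadjusted p of 0.246 (Lmna). Ctps2, the second CTP synthase, had 86.1 and 110 CPM in GFP-negative libraries, against 0 and 79.8 CPM in GFP-positive libraries. Unlike Ctps it was not higher in GFP-negative replicate 1 than in replicate 2. Bmi1, a Polycomb protein as Scmh1 is, had 52 and 11.9 CPM in GFP-negative libraries, against 0 and 15.0 CPM in GFP-positive libraries, and Rnf2 had 77.6 and 19.5 CPM in GFP-negative libraries, against 0 and 23.5 CPM in GFP-positive libraries. Both shared the order of Ctps, highest in GFP-negative replicate 1 and 0 in GFP-positive replicate 1. Lmna, which encodes the prelamin that Zmpste24 cuts, had 388 and 300 CPM in GFP-negative libraries, against 1340 and 724 CPM in GFP-positive libraries. Its GFP-positive libraries were the higher ones, whereas those of Zmpste24 were the lower ones.

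Outside the 10 genes, the profiles over the 4 libraries that came closest to that of Mycl, by Euclidean distance of centred log2(CPM + 1), belonged to Clca3b, Igkv6-20, Mest, Bcr and Capn6, at distances of 3.28 to 3.69. Cap1 followed as the 6th of all tested genes at 3.81. These 5 genes lie on chromosomes 3, 6, 6, 10 and X. Mest, an imprinted gene, had 243 and 3.93 CPM in GFP-negative libraries, against 0 and 4.09 CPM in GFP-positive libraries. Bcr, which encodes a GTPase regulator, had 115 and 2.72 CPM in GFP-negative libraries, against 0 and 0.847 CPM in GFP-positive libraries. Igkv6-20, an immunoglobulin kappa gene segment, had 77.3 and 0 CPM in GFP-negative libraries, against 0.0799 and 1 CPM in GFP-positive libraries, while the 7 markers of B and plasma cells summed to 1142 and 3340 CPM in GFP-negative libraries, against 0.213 and 1448 CPM in GFP-positive libraries. With 4 libraries, a high value in 1 of them is enough to be near Mycl. Rlf and Ppie ranked 98th and 178th, and Ppt1 and Trit1 8735th and 8805th.

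Of the labelled tumour cells, the summed level of 10 neuroendocrine markers was 5192 and 2012 CPM in GFP-negative libraries, against 3461 and 1270 CPM in GFP-positive libraries. Of these 10 markers 7 were highest in GFP-negative replicate 1, and Chga and Chgb had 0 counts in GFP-positive replicate 1. The sum of 5 epithelial markers, with Epcam, was 2650 and 643 CPM in GFP-negative libraries, against 1188 and 325 CPM in GFP-positive libraries. For the 10 genes the sum was 4183 and 261 CPM in GFP-negative libraries, against 2564 and 386 CPM in GFP-positive libraries. All 3 sums were highest in GFP-negative replicate 1 and next highest in GFP-positive replicate 1. Among the 10 genes, Mycl and Ppie led in GFP-negative replicate 1, at 1476 and 1375 CPM. Ppt1 and Trit1 led in GFP-positive replicate 1, at 1604 and 700 CPM, with Mycl at 0.639 CPM. Of the epithelial markers, Krt8 and Krt18 led in both libraries, at 1405 and 820 CPM and at 540 and 369 CPM. In GFP-positive replicate 1, Calca, which encodes the peptide CGRP, made 3071 of the 3461 CPM of the neuroendocrine sum, and 7 of the 10 markers stood at 0 to 0.213 CPM. Without Calca, a choice made after its values were seen, the sum was 2450 and 1524 CPM in GFP-negative libraries, against 390 and 921 CPM in GFP-positive libraries, so that GFP-positive replicate 1 was lowest. The 11 macrophage markers in the table summed to 1102 and 16560 CPM in GFP-negative libraries, against 113487 and 50377 CPM in GFP-positive libraries, lowest where Mycl was high, and 3 of the 11 were called lower, against 0.0920% of all tested genes. The 4 hepatocyte markers in the table summed to 23.5 and 319 CPM in GFP-negative libraries, against 27250 and 158 CPM in GFP-positive libraries, and 3 of these 4 were called lower. Those 3, Alb, Apoa2 and Cyp2e1, were high in GFP-positive replicate 1 alone, at 5078, 18124 and 1969 CPM. In GFP-positive replicate 2 they stood at 0, 3.09 and 0.815 CPM. The 5 erythroid markers summed to 1571 and 5386 CPM in GFP-negative libraries, against 45350 and 14325 CPM in GFP-positive libraries, and 2 of the 5 were called lower. The sums of these 3 lists were lowest in GFP-negative replicate 1. For the hepatocyte list this rested on Ttr, which made 23 of the 23.5 CPM there and 318 of the 319 CPM in GFP-negative replicate 2. The 4 endothelial markers in the table summed to 94.0 and 19.7 CPM in GFP-negative libraries, against 396 and 1.10 CPM in GFP-positive libraries. Pecam1 was the one endothelial marker above 0 in the GFP-positive libraries, and Vwf held 86.9 of the 94.0 CPM in GFP-negative replicate 1. The 5 markers of T and NK cells in the table summed to 14.3 and 44.7 CPM in GFP-negative libraries, against 0 and 120 CPM in GFP-positive libraries. The part of these cell mixtures in the levels of the 10 genes was not tested, and in such pooled cells more cells of a type cannot be told apart from more RNA per cell.

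**Figure D3:**
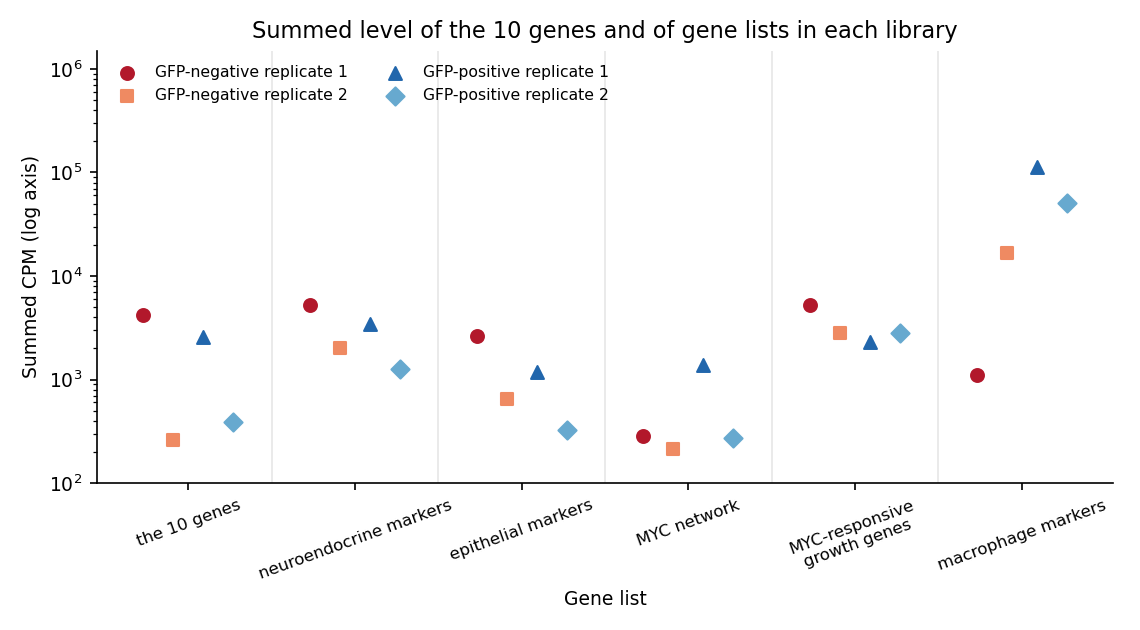
Summed CPM on a log axis of the 10 genes and of 5 gene lists named on the axis, with 1 point per library. The sum of the 10 genes is 4183 and 261 CPM in GFP-negative libraries and 2564 and 386 CPM in GFP-positive libraries, and the macrophage sum is lowest, at 1102 CPM, in GFP-negative replicate 1.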

How the data were processed

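Full-length cDNA had been made from very small amounts of RNA by oligo(dT) priming and template switching, amplified by PCR, fragmented and sequenced in pairs, per the labels' protocols. The authors deposited whole-number counts and FPKM values, as the file headers name them. The tools named in the submitters' processing notes are HISAT2 2.2.1, StringTie 2.1.6, cutadapt 1.9, edgeR and DESeq2, with build mm10. Which program counted, and how shared reads were handled, is not stated there.

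Genes with enough counts (filterByExpr, minimum count 10) were fitted in edgeR 4.0.16 (R 4.3.3) with TMM scaling (factors 1.53 and 0.956 in GFP-negative, 0.722 and 0.944 in GFP-positive libraries), and tested by glmQLFTest at an adjusted p of 0.05. SEs are the log2 change divided by the root of F. All 10 genes passed the filter. At 0 counts the limit of 3 counts equals 0.026 to 0.080 CPM. Positions are from GENCODE M21, where 97.6% of symbols matched 1 gene. Near-copies were sought with BLAST 2.17.0 among transcripts (at least 90% identity over 300 bases). The fit was also run on simulated counts set to much less spread than these libraries have. Here edgeR's common coefficient of variation between libraries of a group was 1.92. The simulated run therefore does not show how the fit behaves on these libraries.

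The 10 genes and the lists were chosen with earlier results of these data known. The naming rule took the 10 genes, other symbols inside their span at 100 CPM or more, the 5 profiles nearest to Mycl and Epcam. It also took MYC network and growth genes and partners by function. Exceptions are marked. Foxo6, Foxj3, Calca, Pecam1, Vwf, Hpcal4, Macf1, Ndufs5 and the MYC network genes shown were picked after their values were seen. So were Bmp8a, Ttr, Alb, Apoa2, Cyp2e1, Krt8 and Krt18, and the growth genes named other than Cdk4 and Npm1. The groups share replicate numbers, but nothing in the labels says that a number marks one animal or day, and the deviations of same-numbered libraries correlated at 0.0333, so the numbers were not taken to pair libraries. Alternatives were a replicate block, other scalings and filters, DESeq2 1.42.0, limma 3.58.1 on log2(FPKM + 1) and log2(FPKM + 0.1), and leaving out each library.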

Additional observations from a re-analysis of the deposited data

How the results depend on the processing

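Of the 117 refitted changes of the 9 genes other than Mycl, 100 kept their direction and their side of the threshold. Mycl, at 10.15 with an adjusted p of 0.0412, kept its call with DESeq2 size factors, library totals and both other filters. The call was lost with the replicate block (log2 change 5.69, adjusted p = 1.0), upper quartile scaling (4.09, adjusted p = 0.863), DESeq2's Wald test (10.48, adjusted p = 0.0522) and limma on log2(FPKM + 1) and log2(FPKM + 0.1) (4.42 and 5.70, adjusted p = 0.788 and 0.716), so that in each of these 0 of the 10 genes were called. Leaving out 1 library gave Mycl changes of 0.24 (without GFP-negative replicate 1) to 11.20 (without GFP-negative replicate 2), and the call was also lost without GFP-positive replicate 1 (10.12, adjusted p = 1.0). With 1 library left in a group, its spread is taken from the other group. The genes called in all were 16, 21 with the replicate block, 0 with upper quartile scaling (1150 at an unadjusted p under 0.05), 61 with DESeq2's Wald test (48 higher in GFP-negative libraries), 0 in both limma fits (408 and 273 at an unadjusted p under 0.05), and 1 (without GFP-positive replicate 1) to 7601 (without GFP-positive replicate 2, 7182 of them higher) with a library left out, with 59 without GFP-negative replicate 2; among the 10 genes the last range was 0 to 5. Without GFP-positive replicate 2, the changes of Scmh1, Ctps, Zmpste24 and Rlf were 12.71, 15.81, 14 and 13.76, each against a GFP-positive library at 0 counts.

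Directions turned for 13 of the 117 refitted changes, none of them called. Ppie was at -4.38 under upper quartile scaling. That scaling also moved Ppt1 from -1.29 to -8.1, Trit1 from -1.02 to -8.09 and Smap2 from -0.35 to -6.9. These kept their direction but not their size, while Scmh1, Ctps, Zmpste24 and Rlf moved less. Smap2 was at 0.47 and Trit1 at 0.06 with library totals, and Smap2 at 0.18 and 0.17 in the limma fits. With a library left out, changes ranged from -9.22 to 12.71 for Scmh1, -8.84 to 7.21 for Cap1, -2.00 to 3.82 for Ppie, -1.30 to 0.50 for Smap2, -2.46 to 0.55 for Ppt1 and -17.28 to 3.86 for Trit1; fits to a group at 0 counts depend on the prior count and are no measure of size. The replicate block changed no other call among the 10 genes.

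The median difference of the 10 genes between GFP-negative replicates 1 and 2 (4.17) was 4.46 with DESeq2 size factors, 4.79 with library totals, 2.94 on log2(FPKM + 1), 4.77 on log2(CPM + 0.1), 3.75 without Mycl, 1.62 over every symbol in the span, 0.10 over symbols within 2 Mb outside it and, in a setting added after seeing the data, 1.25 over every symbol from 120.4 to 123.9 Mb. Between GFP-positive replicates 1 and 2 (-0.60) the same settings gave -0.52, -0.68, -0.17, -1.26, -1.18, -1.23, -1.58 and -1.15. Of the 10 genes, 5 and 1 reached 100 CPM in GFP-negative and 3 and 1 in GFP-positive libraries; at 200 CPM GFP-negative replicate 2 had 0. With 2 libraries a group, and no molecular identifiers, counting precision does not measure the spread between animals.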
